A study of Homo sapiens with 9 samples.

Results

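H/ACA RNAs are short nuclear RNAs that each guide a complex of the enzyme dyskerin (DKC1) with NHP2, NOP10 and GAR1 to a chosen uridine, usually in ribosomal RNA, which the complex turns into pseudouridine. Small Cajal body RNAs, named SCARNA, do related work on the RNAs of the spliceosome, and are held in Cajal bodies, nuclear domains built around the protein coilin. Most human genes of both kinds lie inside introns of host genes, many of which encode ribosomal proteins or translation factors, and the mature RNA is trimmed out of the spliced intron. Members were taken by symbol alone: every probe whose platform gene symbol starts with SNORA followed by a digit, or with SCARNA. The rule found 126 probes for 125 symbols, of 47323 probes on the array. Of these, 102 probes carried 101 SNORA symbols and 24 carried 24 SCARNA symbols.

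The cells were PC3, an established human prostate cancer line, and every sample had been transfected with HiPerfect and 50 nM siRNA for 48 h before RNA was taken. The groups were MELK siRNA, a pool of 4 siRNAs against a protein kinase of dividing cells; UBE2C siRNA, a pool of 4 against the ubiquitin-conjugating enzyme of the anaphase-promoting complex; and the All Stars negative control siRNA, with 3 arrays each. A different company made the control siRNA than the pools, so for changes seen in both knockdowns, target loss and siRNA type cannot be told apart. Nothing in the labels says that the 3 samples of a group came from separate cultures, and the spread that the p-values rest on may therefore be technical.

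The targeted transcripts followed the labels. MELK had a normalized log2 signal of 9.38 ± 0.06 with MELK siRNA and 10.46 ± 0.08 with control siRNA (SD, n = 3 each), and UBE2C had 11.58 ± 0.07 with UBE2C siRNA and 12.90 ± 0.06 with control siRNA (SD, n = 3 each). Between 16559 and 18661 probes were above background on an array, against a background intensity of 97.8 to 102.09. UBE2C siRNA replicate 1 stood apart: its correlations with other arrays over the probes kept were 0.848 to 0.877, and all those among the remaining 8 were at least 0.981 (probes are not independent replicates). Counts of called members are therefore given with all 9 arrays and with the 8 that leave this array out. Values of single host genes, of gene lists and of most single members are from the 8 arrays unless stated. Of 6 epithelial marker genes 4 were above background on all arrays. The summed intensity of all 6 was 12200 to 13310 with MELK siRNA, 8180 to 13160 with UBE2C siRNA and 11400 to 13350 with control siRNA, lowest on UBE2C siRNA replicate 1. Of the luminal markers with a probe, KLK3 and KLK2 were above background on 0 arrays and TMPRSS2 on all 9, at log2 signals of 6.43 to 7.83. Of 10 markers of blood, endothelium and fibroblasts, 6 (PTPRC, CD3E, VWF, CDH5, DCN and PDGFRB) were above background on 0 arrays, while CD68 and PECAM1 were above it on all 9, COL1A1 on 6 and COL1A2 on 2. The summed intensity of this list was 2602 to 2723 with MELK siRNA, 2600 to 3695 with UBE2C siRNA and 2557 to 3161 with control siRNA, and the part of these cell types in the results was not tested.

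Most of the small RNA probes that gave a signal gave a faint one. A probe counted as above background on an array when its detection p was under 0.01 and its intensity exceeded the array's background, and was kept when this held on at least 3 arrays. That kept 71 of the 126 probes (56.4%, against 50.0% of the 30113 probes with 1 gene), for 57 SNORA and 13 SCARNA genes, 70 in all. Of the 126, 38 probes were above background on all 9 arrays and 41 on none. Over the 9 arrays SNORA12 read intensities of 372.6 to 981.4 and SCARNA10 of 462.8 to 673.5, well clear of background, while SNORA23 read 99.39 to 167.6. The number of member probes above background was 57, 60 and 63 on the MELK siRNA arrays and 66, 63 and 66 on the UBE2C siRNA arrays. It was 55, 55 and 56 on the control arrays, so each knockdown array detected more than any control, by a margin as narrow as 57 against 56. Over all probes the counts were 18270, 18661 and 18492 with MELK siRNA and 16559, 18204 and 18427 with UBE2C siRNA. On the control arrays they were 18533, 18508 and 18493. A filter passed through the groups where a member is high favours members that differ, so the counts below are over the 70 members tested and do not speak for the other 55.

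Total RNA was prepared on columns and amplified with the MessageAmp II kit, which starts from poly(A) tails in its standard form. Mature H/ACA RNAs carry no long tail, and whether these probes read the mature RNA, a precursor or host transcript was not measured.

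**Figure D1:**
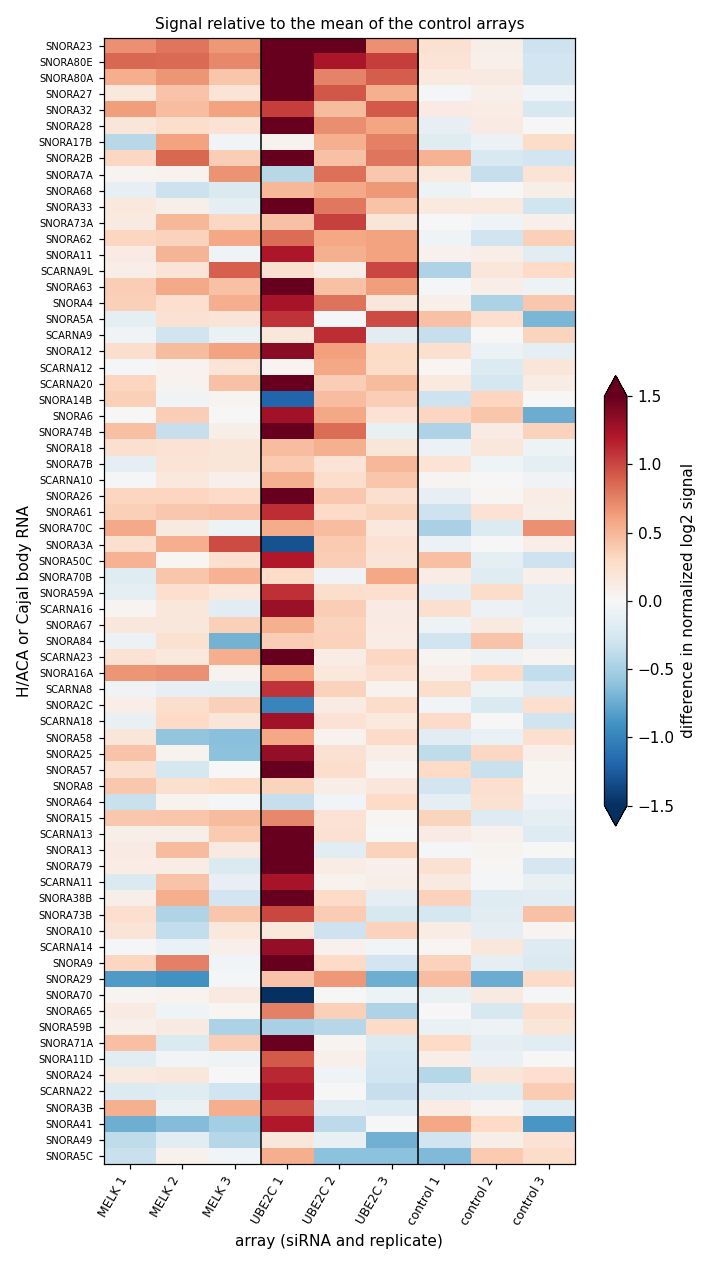
Normalized log2 signal of the 70 members tested (rows, ordered by their change with UBE2C siRNA on 8 arrays) minus the mean of the 3 control arrays, in columns for MELK siRNA, UBE2C siRNA and control siRNA replicates. The UBE2C siRNA replicate 1 column is the darkest, with a median of 1.08, while the medians of the other knockdown arrays lie between 0.14 and 0.31.

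The median of the members tested lay above the control mean on every knockdown array. Relative to the control mean, the median member lay at 0.14, 0.17 and 0.16 on the log2 scale on MELK siRNA replicates 1 to 3, at 1.08, 0.31 and 0.22 on UBE2C siRNA replicates 1 to 3, and at 0.03, 0.01 and -0.02 on the controls. The same median over all 11428 genes lay between -0.02 and 0.03 on every array other than UBE2C siRNA replicate 1, where it was 0.28. With MELK siRNA against control, the log2 fold change was positive for 53 of the 70 members, with a median of 0.12, against 0.0042 for all genes. With UBE2C siRNA 62 were positive with 9 arrays, at a median of 0.46 (all genes 0.05), and 57 with 8 arrays, at a median of 0.25 (all genes -0.02).

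The 38 members above background on all 9 arrays, which passed the filter in every group, had medians of 0.12 with MELK siRNA and 0.21 with UBE2C siRNA in the 8-array fit, and the 8913 genes above background on all 9 arrays had 0.01 and -0.02. Medians of other small RNA genes were also positive. Among 44 SNORD genes, whose RNAs guide ribose methylation, the 8-array medians were 0.16 with MELK siRNA and 0.18 with UBE2C siRNA, and among 20 other structured small RNA genes they were 0.37 and 0.48. These medians are descriptions of the arrays and carry no test.

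Few single members passed the test. With UBE2C siRNA against control on 8 arrays, 4 of 70 members rose and 0 fell at an adjusted p under 0.05 (limma with Benjamini-Hochberg adjustment over 11428 genes), where 1.68% of all genes were called higher and 2.78% lower. They were SNORA80E, SNORA80A, SNORA23 and SNORA27. Of these, SNORA23 reached the filter of 3 arrays only with its knockdown arrays. With MELK siRNA against control on 8 arrays, 2 of 70 rose, SNORA80E and SNORA80A, and 0 fell, where 2.29% of all genes were called higher and 3.22% lower. With median scaling in place of quantile normalization, all genes split into 134 called higher and 25 lower with MELK siRNA (262 and 368 otherwise) and into 7 and 2 with UBE2C siRNA (192 and 318 otherwise), and the median over all genes with MELK siRNA was 0.085, against a median of 0.17 for the members. Under quantile normalization, the share of members called was close to the background share with MELK siRNA, and with UBE2C siRNA it rests on 4 genes. On the same 8 arrays, 5 of 44 SNORD genes and 6 of 20 other structured small RNA genes were called higher with UBE2C siRNA. With MELK siRNA these counts were 4 and 2, and in both comparisons 0 were called lower.

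At an unadjusted p under 0.05 on 8 arrays, 8 members passed with MELK siRNA, where 22.1% of all genes did so (11.0% on the higher side), and 13 with UBE2C siRNA, where 22.7% of all genes did so (9.77% on the higher side), all with positive values. The 2 fits differ in their prior for the spread as well as in the array left out. With the constant prior of the 9-array fit, the 8 arrays called 0 members, and with the trended, robust prior of the 8-array fit, the 9 arrays called 0. With all 9 arrays, limma called 0 members in either comparison with control, and of all genes 0 with MELK siRNA and 1 (0.00875%), on the lower side, with UBE2C siRNA. That fit did not call the targeted MELK transcript itself (-1.09, adjusted p = 0.884 in limma), which the 8-array fit did (adjusted p = 7.82e-06). The 0 calls of the 9-array fit with MELK siRNA therefore do not show an absence of change. The next counts are also from the 9-array fit. At an unadjusted p under 0.05, 2 members passed with MELK siRNA, where 5.39% of all genes did so (2.46% on the higher side), and 19 with UBE2C siRNA, where 11.1% of all genes did so (6.76% on the higher side); all of these 21 values were positive. With array weights, which gave UBE2C siRNA replicate 1 a weight of 0.05, the 9 arrays called 1 member with MELK siRNA and 8 with UBE2C siRNA. The shares of all genes called with these weights and with the exchanged priors are not given here. These counts therefore do not set the members apart from all genes.

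Separation of the arrays gave larger counts. All MELK siRNA arrays lay above all controls for 17 members, where this was so of 13.8% of all genes, and below all controls for 1, SNORA68, where it was so of 11.9%. Both UBE2C siRNA arrays of the 8-array fit lay above all controls for 25 members, where this was so of 17.3% of all genes, and below them for 1, SNORA3B, where it was so of 21.6%. With all 3 UBE2C siRNA arrays the counts were 20 members above, against 11.4% of all genes, and 0 below, against 7.79%. Some members passed the filter through the arrays where they are high, which favours separation. Of the 38 members above background on all 9 arrays, 14 lay above all controls with UBE2C siRNA on 8 arrays and 1 below. With MELK siRNA 11 lay above and 1 below. Of the 8913 genes above background on all 9 arrays, 19.3% and 16.1% lay above, and 23.9% and 13.6% below. The 25 members are 35.7% of those tested and the 17 are 24.3%.

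SNORA80E (probe ILMN_3248575, chromosome 1), an H/ACA RNA formerly named SNORA42 and of the same family as SNORA80A, had the smallest adjusted p of the members tested in both knockdowns on 8 arrays. Its log2 signal was 6.82, 6.81 and 6.69 with MELK siRNA, 8.32, 7.19 and 7.00 with UBE2C siRNA, and 6.17, 6.04 and 5.68 with control siRNA. The groups did not overlap: every MELK siRNA array lay above every control and every UBE2C siRNA array above every MELK siRNA array. Raw intensities were 208, 209.7 and 192.2 with MELK siRNA, 349.8, 222.7 and 219.6 with UBE2C siRNA, and 157.6, 159.6 and 135.6 with control siRNA, all above background. It rose by 0.81 with MELK siRNA (SE 0.18, 1.76-fold, adjusted p = 0.0142 in limma) and by 1.13 with UBE2C siRNA on 8 arrays (SE 0.20, 2.19-fold, adjusted p = 0.0119). With 9 arrays the change with UBE2C siRNA was larger, at 1.54, and its adjusted p was 0.397.

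SNORA80A (probe ILMN_3238554, chromosome 21) had the same order of groups at a smaller distance. Its log2 signal was 7.51, 7.64 and 7.39 with MELK siRNA, 8.58, 7.71 and 7.88 with UBE2C siRNA, and 7.12, 7.10 and 6.70 with control siRNA. Each knockdown array lay above each control, and UBE2C siRNA replicate 1 was again the highest of all. The rise was 0.54 with MELK siRNA (SE 0.15, 1.46-fold, adjusted p = 0.0440 in limma) and 0.82 with UBE2C siRNA on 8 arrays (SE 0.17, 1.77-fold, adjusted p = 0.0167). SNORA80A and SNORA80E belong to 1 family, and whether the probe of one also binds the other was not tested.

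SNORA23 (probe ILMN_3247939, chromosome 11), a guide for the large ribosomal RNA, lay close to background. It had a log2 signal of 5.32, 5.44 and 5.28 with MELK siRNA, 6.87, 6.23 and 5.32 with UBE2C siRNA, and 4.86, 4.72 and 4.32 with control siRNA. Only 1 of the 3 controls was above background, while all 6 knockdown arrays were; raw intensities ran from 125.9 to 132.9 with MELK siRNA, from 127.9 to 167.6 with UBE2C siRNA and from 99.39 to 114.1 with control siRNA. SNORA23 thus reached the filter of 3 arrays only with the arrays where it is high, and its call is no independent support for a rise. It differed by 1.14 with UBE2C siRNA on 8 arrays (SE 0.31, adjusted p = 0.0449 in limma) and by 0.71 with MELK siRNA (SE 0.28, adjusted p = 0.138). With controls this close to background, no fold is given. UBE2C siRNA replicate 3 lay at the level of the MELK siRNA arrays, so the size rests on replicate 2: without replicate 2 the value was 0.68 (adjusted p = 0.444), and without replicate 3 it was 1.59 (adjusted p = 0.102).

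SNORA27 (probe ILMN_3248811, chromosome 13) separated all 3 groups. Its log2 signal was 6.25, 6.53 and 6.30 with MELK siRNA, 7.69, 7.03 and 6.63 with UBE2C siRNA, and 6.06, 6.17 and 6.06 with control siRNA. All UBE2C siRNA arrays lay above all MELK siRNA arrays, and these above all controls. The rise of 0.73 with UBE2C siRNA on 8 arrays passed (SE 0.20, 1.66-fold, adjusted p = 0.0470 in limma), and the difference of 0.26 with MELK siRNA did not (SE 0.18, adjusted p = 0.412).

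**Figure D2:**
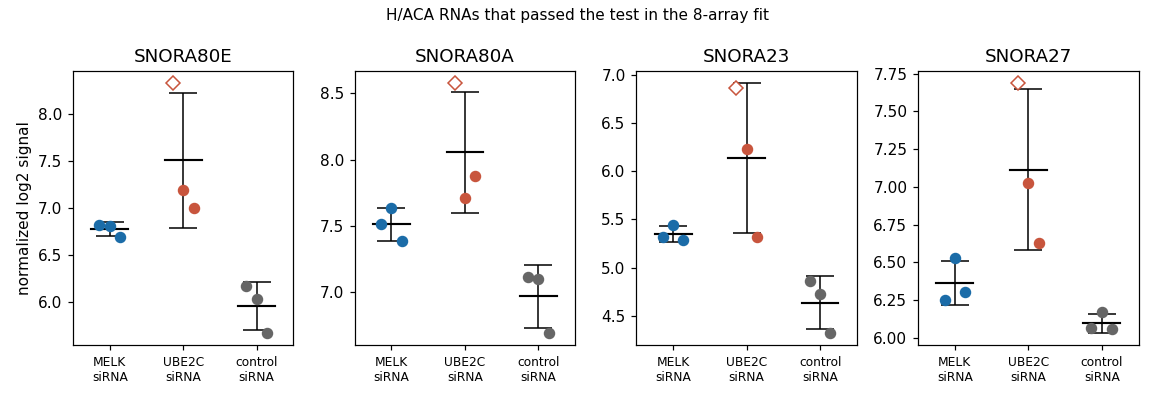
Normalized log2 signal of SNORA80E, SNORA80A, SNORA23 and SNORA27 on each array (points; open diamond, UBE2C siRNA replicate 1), with the mean and SD of all 3 arrays of a group as lines; each panel has its own vertical scale. Every knockdown array lies above every control in all 4 panels, and the open diamond is the highest point in each.

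These sizes depend on the scale. On the authors' processed values, which keep the background in, SNORA80E differed by 0.39 with MELK siRNA and by 0.58 with UBE2C siRNA on 8 arrays, SNORA80A by 0.34 and 0.54, SNORA23 by 0.22 and 0.38, and SNORA27 by 0.12 and 0.37. The limma calls of the 4 genes held on that scale, with adjusted p from 0.00990 to 0.0495. For each of these genes the two-sided exact permutation test over 3 knockdown and 3 control arrays gave p = 0.1, the smallest value it can give. With UBE2C siRNA on 8 arrays, all 4 calls were lost with median scaling in place of quantile normalization (adjusted p from 0.0552 to 0.177), with a constant prior spread (0.112 for each) and without either remaining UBE2C siRNA array (0.0907 to 0.444). With MELK siRNA, the call of SNORA80A was lost in all 8 fits that left out 1 more array (0.0528 to 0.189), with median scaling (0.0962), detection p alone (0.0862), no filter (0.0953), every kept probe (0.0552), only 2 groups in the fit (0.0727) and a constant prior (0.109). The call of SNORA80E with MELK siRNA was lost with a constant prior (0.0754) and without MELK siRNA replicate 2 (0.0816).

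Several members stood just outside the threshold with UBE2C siRNA on 8 arrays. SNORA62, a member in the ribosomal protein gene RPSA, differed by 0.59 (SE 0.17, adjusted p = 0.0558), SNORA28 in the translation factor gene EIF5 by 0.65 (SE 0.19, adjusted p = 0.0615), SNORA63 in EIF4A2 by 0.54 (SE 0.17, adjusted p = 0.0826) and SNORA12 in CWF19L1 by 0.46 (SE 0.15, adjusted p = 0.0829). With MELK siRNA the nearest were SNORA12, at 0.45 (adjusted p = 0.0578), and SNORA63, at 0.46 (adjusted p = 0.0919).

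No difference between the knockdowns passed the test for any member. In MELK siRNA against UBE2C siRNA, limma called 0 of 70 members with 9 arrays, where 0.00875% of all genes were called higher and 0 lower, and 0 with 8 arrays, where 0.00875% were called in each direction. At an unadjusted p under 0.05, 8 members passed with 9 arrays, where 2.94% of all genes did so (1.26% on the higher side), and 5 with 8 arrays, where 5.08% did so (2.91% on the higher side), all 13 values negative. Of the 70, 20 were positive on 8 arrays, with a median of -0.11 (all genes 0.03). Both UBE2C siRNA arrays lay above all MELK siRNA arrays for 14 members, where this was so of 9.22% of all genes, and below them for 7, where it was so of 14.2%. With all 3 UBE2C siRNA arrays these counts were 12, against 4.71% of all genes, and 1, SNORA70, against 4.46%.

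SNORA68 was the member whose knockdown values lay on either side of the control. Its log2 signal was 5.43, 5.23 and 5.33 with MELK siRNA, 6.05, 6.12 and 6.20 with UBE2C siRNA, and 5.47, 5.54 and 5.63 with control siRNA. All MELK siRNA arrays lay below all controls and all UBE2C siRNA arrays above them, and UBE2C siRNA replicate 1 did not stand out. The values were -0.22 for MELK siRNA against control (SE 0.21, adjusted p = 0.584 in limma), 0.61 for UBE2C siRNA against control (SE 0.23, adjusted p = 0.132) and -0.83 for MELK siRNA against UBE2C siRNA (SE 0.23, adjusted p = 0.937), all on 8 arrays.

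SNORA33, in RPS12, had a log2 signal of 5.73, 5.66 and 5.43 with MELK siRNA, 7.31, 6.36 and 6.00 with UBE2C siRNA, and 5.72, 5.73 and 5.27 with control siRNA. The UBE2C siRNA arrays lay above all others, while MELK siRNA and control arrays overlapped. Its difference on 8 arrays was 0.61 between UBE2C siRNA and control (SE 0.25, adjusted p = 0.154 in limma) and -0.57 between MELK siRNA and UBE2C siRNA (SE 0.25, adjusted p = 0.937).

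SNORA3A and SNORA3B, which lie in the same host gene, RPL27A, and resemble each other, read differently. SNORA3A had a log2 signal of 6.00, 6.31 and 6.75 with MELK siRNA, 4.46, 6.15 and 5.98 with UBE2C siRNA, and 5.68, 5.76 and 5.86 with control siRNA. SNORA3B had 6.23, 5.60 and 6.25 with MELK siRNA, 6.67, 5.53 and 5.51 with UBE2C siRNA, and 5.82, 5.74 and 5.54 with control siRNA. On UBE2C siRNA replicate 1 the first was the lowest of the 9 arrays and the second the highest, so the sign of both changes with UBE2C siRNA depends on that array: -0.23 with 9 arrays and 0.30 with 8 for SNORA3A, 0.20 with 9 and -0.18 with 8 for SNORA3B, none of them called (adjusted p from 0.485 to 0.810).

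SNORA5C, in TBRG4, and SNORA15, in the chaperonin subunit gene CCT6A, were higher on all MELK siRNA arrays than on both UBE2C siRNA arrays of the 8-array fit. SNORA5C had 4.92, 5.32 and 5.22 with MELK siRNA, 5.80, 4.65 and 4.64 with UBE2C siRNA, and 4.60, 5.64 and 5.53 with control siRNA. It was not above background on UBE2C siRNA replicates 2 and 3, so only bounds between group means are given. The MELK siRNA mean was at least 1.42-fold above the mean of those arrays (adjusted p = 0.937 in limma). The control mean was at least 1.53-fold above it (adjusted p = 0.280). Neither difference passed the test, only 2 of 3 controls were above background, and control siRNA replicate 1 lay below both UBE2C siRNA arrays. SNORA15 had 4.91, 4.93 and 4.99 with MELK siRNA, 5.23, 4.73 and 4.53 with UBE2C siRNA, and 4.84, 4.32 and 4.37 with control siRNA, and was above background on 2, 1 and 0 arrays of these groups. It thus passed the filter through its knockdown arrays alone, and no fold is given. Such a bound sets the bright group's mean against the higher of the dim probe's own signal and the lowest signal above background on each array.

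At the other end, 6 members above background on all arrays had the smallest changes with UBE2C siRNA on 8 arrays: SCARNA14 (0.01), SNORA10 (0.02), SNORA65 (-0.05), SCARNA11 (0.08), SNORA71A (-0.09) and SNORA79 (0.09). SNORA10 lies in RPS2 and SNORA65 in RPL12, both ribosomal protein genes, as is RPL21, the host of SNORA27.

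None of the Cajal body RNAs tested was called. Of 13 SCARNA genes tested, 9 were positive with MELK siRNA (median 0.07), 13 with UBE2C siRNA on 9 arrays (median 0.46) and 12 on 8 arrays (median 0.22), with 0 called by limma in any of these. At an unadjusted p under 0.05, 0 passed with MELK siRNA and 2 with UBE2C siRNA on 9 arrays (5.39% and 11.1% of all genes), and 0 and 1 on 8 arrays (22.1% and 22.7%). All MELK siRNA arrays lay above all controls for 1 of the 13 (13.8% of all genes), and both UBE2C siRNA arrays of the 8-array fit for 4 (17.3%). For the 9 SCARNA genes above background on all arrays, the values with UBE2C siRNA on 8 arrays were 0.34 for SCARNA10, 0.25 for SCARNA16, 0.22 for SCARNA23, 0.20 for SCARNA8, 0.18 for SCARNA18, 0.11 for SCARNA13, 0.08 for SCARNA11, 0.01 for SCARNA14 and -0.18 for SCARNA22. The smallest adjusted p was that of SCARNA10, at 0.0992. SCARNA10 was above background on all arrays, with a log2 signal from 8.69 to 9.27, and its UBE2C siRNA arrays all lay above its controls. SCARNA20 was above background on all 3 UBE2C siRNA arrays and on 0 of the MELK siRNA and 0 of the control arrays, so it passed the filter through its UBE2C siRNA arrays alone. SCARNA9, SCARNA9L and SCARNA12 were above background on only 3 or 4 arrays, and no value is given for these 4 genes. SCARNA9 and SCARNA9L are near copies, so their probes may read each other's RNA, and the same holds for SNORA73A and SNORA73B, SNORA7A and SNORA7B, SNORA59A and SNORA59B, SNORA11 and SNORA11D, and the SNORA70 genes. For SNORA73B, the member with a second kept probe, the probes gave 0.07 and 0.72 with UBE2C siRNA on 8 arrays, and 0.07 and 0.64 with MELK siRNA, none called. The probe that gave 0.07 was above background on 2 control arrays and on no MELK siRNA array. Its value with MELK siRNA is thus a difference close to background.

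How much UBE2C siRNA replicate 1 adds was measured against replicates 2 and 3 of its own group. The median member was 0.82 higher on replicate 1 on the log2 scale, against 0.33 for all genes and 0.08 for the tested host genes of all members. There, 57 of 70 members (81.4%) were higher, against 64.5% of all genes. By more than 1, 28 members were higher and 5 lower, and of the 11428 genes 1845 were higher and 1557 lower. That array held the highest of the 9 values for 47 members (67.1%) and for 50.5% of all genes, and the lowest for 7 members (10.0%) and for 26.2% of all genes. Among SCARNA genes it held the highest value for 10 of 13. SNORA70 shows the other direction: its log2 signal was 4.34 on that array and 6.95 to 7.03 on the other UBE2C siRNA arrays, and its change with UBE2C siRNA was -0.92 with 9 arrays and -0.04 with 8. Between the fits the sign of the change with UBE2C siRNA differed for 13 of 70 members, 4 of them negative with 9 arrays and positive with 8. No cause for the array's deviation was tested.

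**Figure D3:**
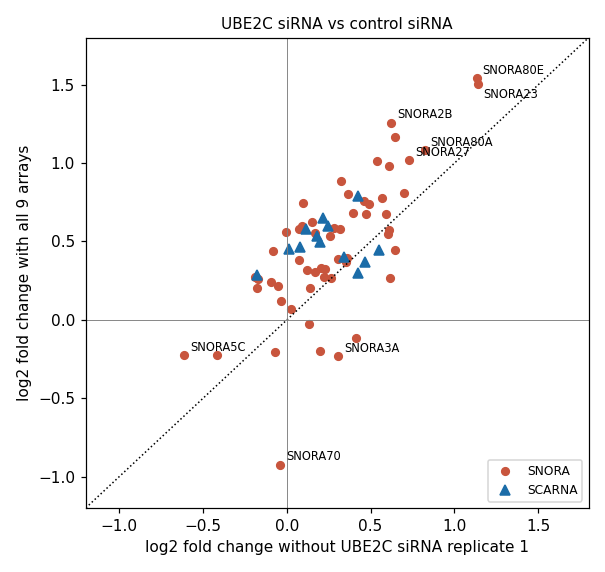
Log2 fold change of each of the 70 members between UBE2C siRNA and control siRNA, with all 9 arrays (vertical) against the fit without UBE2C siRNA replicate 1 (horizontal); circles are SNORA genes, triangles SCARNA genes, and the dotted line marks equal values. Most points lie above the line, with medians of 0.46 and 0.25, and SNORA70 lies farthest below it.

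Host genes were set beside the members they contain, since an intronic small RNA is usually cut from its host's transcript. Of the 70 members tested, 69 lay within the span of a gene in the RefSeq table, 9 of them within more than 1, in which case the shortest was taken without regard to strand; 54 had a host that was itself tested, from 45 distinct genes. The signed change of the member exceeded that of its host in 40 of 54 pairs with MELK siRNA (median difference 0.13), and with UBE2C siRNA in 37 of 54 pairs on 8 arrays (median difference 0.18) and 45 of 54 on 9 arrays (median difference 0.40). Pairs that share a host are not independent, and no test was run over pairs.

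The hosts of the called members did not pass the test in either knockdown. KHDC4, an RNA-binding protein gene that holds SNORA80E, had a log2 fold change of 0.04 with MELK siRNA and 0.04 with UBE2C siRNA on 8 arrays (adjusted p = 0.885 and 0.877 in limma). URB1, a nucleolar protein gene of ribosome assembly that holds SNORA80A, had -0.30 and -0.47 (adjusted p = 0.425 and 0.238), opposite in sign to its small RNA. IPO7, a nuclear import receptor gene that holds SNORA23, had -0.26 and 0.11 (adjusted p = 0.559 and 0.840), and the ribosomal protein gene RPL21, which holds SNORA27, had -0.07 and 0.08 (adjusted p = 0.657 and 0.668). With all 9 arrays, the UBE2C siRNA values were -0.09 for KHDC4, -0.07 for URB1, -0.67 for IPO7 and -0.11 for RPL21, none called. The sign for KHDC4, IPO7 and RPL21 thus depends on UBE2C siRNA replicate 1.

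Among the 45 distinct tested hosts of tested members, on 8 arrays, limma called 1 higher and 0 lower with MELK siRNA. With UBE2C siRNA 2 were called higher and 1 lower. Of all genes, 2.29% were called higher and 3.22% lower with MELK siRNA, and 1.68% and 2.78% with UBE2C siRNA. With MELK siRNA limma called TIPIN higher (0.43, adjusted p = 0.0394), where its member SCARNA14 had -0.02. With UBE2C siRNA it called TMEM167A higher (0.44, adjusted p = 0.0222), where SCARNA18 had 0.18. TCP1 was also called higher by limma with UBE2C siRNA (0.38, adjusted p = 0.0323). Its member SNORA29 was above background on 0 MELK siRNA arrays, 2 UBE2C siRNA arrays and 1 control array, so no value is given. EP400 was called lower by limma with UBE2C siRNA (-0.61, adjusted p = 0.0199), where SNORA49 had -0.42 (adjusted p = 0.438). TAF1D, a subunit gene of the RNA polymerase I factor SL1, contains 4 tested members. With UBE2C siRNA on 8 arrays TAF1D had 0.30, and its members SNORA18, SNORA25 and SNORA8 had 0.36, 0.17 and 0.14, while SNORA32 was above background on 0 of the 3 controls. None of these values passed the test, and differences between members of one host were not tested.

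**Figure D4:**
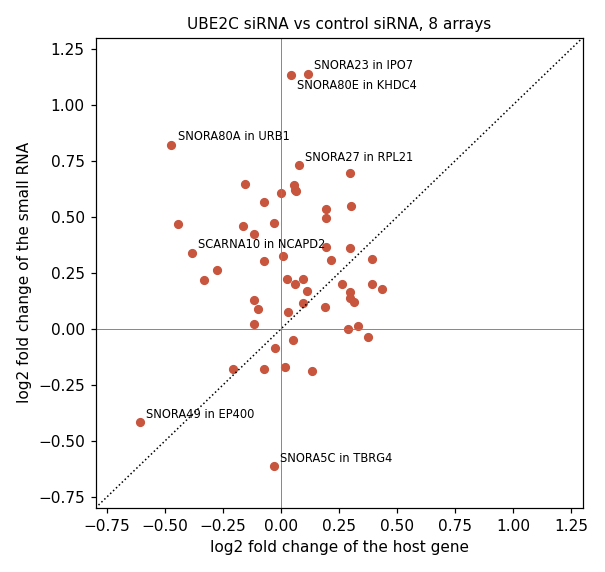
Log2 fold change of the small RNA (vertical) against that of its host gene (horizontal) between UBE2C siRNA and control siRNA on 8 arrays, for the 54 members with a tested host; the dotted line marks equal values. SNORA80E, SNORA23, SNORA80A and SNORA27 lie above the line with hosts between -0.47 and 0.11.

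The promoters of the genes that span the called members are shown, since these would drive a host transcript. Strand was not compared, so whether the small RNAs are transcribed from them was not established. RefSeq windows on GRCh38.p14 gave the letters. Each sequence runs 5′ to 3′ on the strand of the host gene, with the 100 bases before the annotated start in lower case and the first 10 transcribed bases in capitals. The KHDC4 window is chr1:155934404-155934513 on the minus strand, that of URB1 is chr21:32393003-32393112 on the minus strand, that of IPO7 is chr11:9384552-9384661 on the plus strand and that of RPL21 is chr13:27251458-27251567 on the plus strand.
KHDC4 (SNORA80E): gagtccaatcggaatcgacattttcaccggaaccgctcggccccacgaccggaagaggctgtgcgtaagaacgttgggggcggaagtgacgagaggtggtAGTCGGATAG
URB1 (SNORA80A): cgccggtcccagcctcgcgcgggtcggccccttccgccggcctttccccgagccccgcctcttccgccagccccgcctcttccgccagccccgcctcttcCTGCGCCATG
IPO7 (SNORA23): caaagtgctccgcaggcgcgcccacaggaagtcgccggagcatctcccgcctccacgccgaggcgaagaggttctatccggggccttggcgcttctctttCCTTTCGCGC
RPL21 (SNORA27): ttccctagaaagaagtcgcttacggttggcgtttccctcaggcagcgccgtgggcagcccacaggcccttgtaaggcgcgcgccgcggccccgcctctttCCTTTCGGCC

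Transcripts of ribosomal protein genes typically start with a C followed by a run of pyrimidines, the 5′ terminal oligopyrimidine tract. Counted from the annotated start on the gene's own strand, the run of C or T letters was 6 long for IPO7 and RPL21, 2 for URB1 and 0 for KHDC4. A C at the start within a run of at least 5 was found in 15 of 62 RefSeq windows of the hosts of tested members (24.2%; 50 of 58 hosts had a window, some with several starts), against 4.07% of all 35116 windows. The 4 hosts of called members thus include both kinds of start. A run of letters is a description of the annotated start and no measure of its use.

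The machinery that makes and holds these RNAs was read from 4 lists on 8 arrays, where 2.29% of all genes were called higher and 3.22% lower with MELK siRNA, 1.68% and 2.78% with UBE2C siRNA, and 22.1% and 22.7% passed at an unadjusted p under 0.05. Of 11 tested genes for the H/ACA core proteins and their assembly factors, 0 of 11 were called in either knockdown on 8 arrays (0 at an unadjusted p under 0.05), with medians of 0.08 with MELK siRNA and 0.05 with UBE2C siRNA. DKC1, the pseudouridine synthase, had 0.08 and 0.05, NHP2 0.10 and 0.05, NOP10 0.05 and 0.09, and GAR1 0.04 and -0.0002. Of 17 Cajal body and delivery genes 0 were called (2 and 4 at an unadjusted p under 0.05); COIL, which encodes coilin, had 0.11 with MELK siRNA and -0.05 with UBE2C siRNA, and WRAP53, whose product carries small RNAs to the Cajal body, had 0.11 and 0.16. Of 10 stand-alone pseudouridine synthase genes 0 were called, and 0 passed at an unadjusted p under 0.05. Of 29 genes for release, trimming and decay of intronic small RNAs, 2 rose with MELK siRNA and 0 fell: EXOSC1, an exosome subunit gene (0.27, adjusted p = 0.0484 in limma), and RBM7, whose product brings the exosome to nuclear RNA (0.38, adjusted p = 0.0478). Both lay close to the threshold. At an unadjusted p under 0.05, 13 of the 29 passed with MELK siRNA, 9 of them positive, and all MELK siRNA arrays lay above all controls for 11 (37.9%, against 13.8% of all genes) and below them for 3 (11.9% of all genes). With UBE2C siRNA 0 of the 29 were called, and 8 passed at an unadjusted p under 0.05, 4 of them positive. With all 9 arrays and MELK siRNA, 0 of the 29 were called and 1 passed at an unadjusted p under 0.05 (5.39% of all genes). That fit did not call MELK itself, so this does not show an absence of change. With all 9 arrays and UBE2C siRNA, the 11 H/ACA core and assembly genes had a median of -0.27, and 0 were called.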

How the data were processed

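PC3 total RNA was amplified, biotin-labelled and hybridized to Illumina bead arrays, per the labels' protocols. The deposited intensities are linear bead signals per probe, with neither background subtraction nor scaling, as their values show; the deposited detection p-values come without a stated method. The authors' processed values are deposited log2 values with equal quantiles on every array and background left in, at a median of 6.78; the submitters' processing notes name lumi, with no version or parameters. Intensities were background-corrected, quantile-normalized and log2-transformed with neqc (offset 16) in limma 3.58.1 (R 4.3.3). For each gene the kept probe with the highest mean was used. Group means were fitted with lmFit and eBayes to 9 arrays (constant prior) and to 8 (trended, robust prior), with Benjamini-Hochberg adjustment over 11428 genes. Both fits were tested on simulated data. The RefSeq table has no strand column, so hosts were taken by span alone, which departs from the rule as written. Slide and scan date were not used here, so batches were not tested. Full values are given for the called members and, in each comparison on 8 arrays, for up to 3 members with the largest change in each direction whose arrays do not overlap. Members, lists and the 8-array fit were chosen with earlier results of these data known. Other small RNA classes and genes above background on all arrays are comparisons added after seeing the data.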

Additional observations from a re-analysis of the deposited data

How the results depend on the processing

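Array number and faint signal limit these results: 32 of the 70 members tested were not above background on every array. Of the changed settings below, only median scaling has its counts over all genes given above, so the others do not set the members apart. With 9 arrays, array weights called 1 member for MELK siRNA, 8 for UBE2C siRNA and 1 for MELK siRNA against UBE2C siRNA, in place of 0 each. On 8 arrays the 2 calls for MELK siRNA became 1 with median scaling, with detection p alone, with no filter, with every kept probe and with only 2 groups in the fit, and 0 with a constant prior; leaving out 1 array gave 0 to 3 (0 without MELK siRNA replicate 2; 1 without control siRNA replicate 2, MELK siRNA replicate 3 or either UBE2C siRNA array). The 4 calls for UBE2C siRNA became 0 with median scaling, detection p alone or a constant prior, and 2 with no filter, every kept probe or only 2 groups; leaving out 1 array gave 0 to 5 (0 without UBE2C siRNA replicate 2 or 3; 2 without control siRNA replicate 1 or 2 or MELK siRNA replicate 2). A constant prior gave adjusted p of 0.0754 and 0.109 for SNORA80E and SNORA80A with MELK siRNA. Members tested numbered 38 when above background on all arrays and 125 with no filter. Called hosts (1 for MELK siRNA, 3 for UBE2C siRNA) became 0 and 0 with median scaling, and 2 for MELK siRNA with the mean of probes. The median of the members with MELK siRNA ranged from 0.06 on the authors' values to 0.19 without MELK siRNA replicate 1.

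The sign turned when 1 array was left out for SNORA33 with MELK siRNA (-0.12 to 0.12) and SNORA5C with MELK siRNA (-0.44 to 0.088), in both fits, and for SNORA23 in MELK siRNA against UBE2C siRNA on 8 arrays (-0.88 to 0.026). With 9 arrays it turned for SNORA3A with UBE2C siRNA (-0.54 to 0.30; 0.33 with array weights), SNORA3B with UBE2C siRNA (-0.18 to 0.40; -0.18 with array weights), and, in MELK siRNA against UBE2C siRNA, SNORA15 (-0.038 to 0.31), SNORA3B (-0.077 to 0.51) and SNORA5C (-0.071 to 0.51). None of these was called, and the cause was not tested. Of the other single-member values, 1127 kept their direction and side of the threshold, 51 lost a call and 8 gained one. Same-numbered arrays of different groups deviated with correlations from -0.125 to 0.245, and differently numbered ones from -0.244 to 0.227. These ranges overlap and include the deviating UBE2C siRNA replicate 1, so they cannot decide whether the numbers pair the samples. With the replicate block on 8 arrays, limma called 2 members for MELK siRNA and, for UBE2C siRNA, 3, without SNORA27 (adjusted p = 0.0748); on 9 arrays it called 0.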

Other observations

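Of the 55 members not tested, 14 probes were above background on 1 or 2 arrays. SNORA1 and SNORA21 were above it on 2 UBE2C siRNA arrays each and on 0 arrays of the other groups, with highest intensities of 136.3 and 133.7, both on UBE2C siRNA replicate 1. SNORA17A was above it on 2 MELK siRNA arrays and on 0 of the others, with a highest intensity of 123.8 on MELK siRNA replicate 2. SCARNA4 was above it on 1 UBE2C siRNA array and 1 control array, and SCARNA17 on 1 control array.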
